A study of Mus musculus with 4 samples.

Results

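Zinc handling in the ischemic hippocampus was followed through 8 genes, chosen by symbol: the metallothioneins Mt1, Mt2 and Mt3, the zinc-sensing transcription factor gene Mtf1, the zinc exporter genes Slc30a1 and Slc30a3, and the zinc importer genes Slc39a10 and Slc39a14. All 8 were among the 22609 gene symbols counted, and all 8 passed the filter on low counts, which left 15011 genes tested. RNA came from the hippocampus of ovariectomized female mice after 20 min of closure of both common carotid arteries under isoflurane and 24 h of reperfusion, which all samples share. The 2 groups were FLOX-control, with the floxed aromatase gene Cyp19a1, and GFAP-ARO-KO, in which Cre driven by the Gfap promoter is meant to delete Cyp19a1 in astrocytes, with 2 libraries each. The sources used here give neither the Cre line nor the number of animals behind a library, so p-values measure the spread between these samples, which may be technical. No sham group entered the comparison, so a difference in the response to ischemia and one present before it cannot be told apart.

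Metallothioneins are small cysteine-rich proteins that bind zinc and copper and buffer them in the cytosol. Zinc that exceeds the buffer is sensed by the zinc finger protein MTF-1, which binds metal response elements in DNA and drives Mt1, Mt2 and the exporter gene Slc30a1. Transporters of the SLC30 (ZnT) family carry zinc out of the cytosol into vesicles or out of the cell, and those of the SLC39 (ZIP) family carry it in. In the hippocampus the SLC30A3 protein (ZnT3) loads zinc into glutamatergic synaptic vesicles, above all in the mossy fibers of dentate granule neurons, and zinc released in ischemia can injure neurons that take it up. Mt1 and Mt2 are best known from astrocytes and also respond to glucocorticoids and cytokines, whereas Mt3 is the form typical of brain.

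Of the 8 genes, Mt1 rose and Slc39a10 fell in GFAP-ARO-KO against FLOX-control, and 6 did not pass the test. Mt1 was 1.91-fold higher and Slc39a10 was 2.48-fold lower. The test was edgeR's quasi-likelihood test with Benjamini-Hochberg adjustment over all 15011 genes and a threshold of 0.05, at which 20.4% of all genes passed, 9.39% as higher and 11% as lower. A count of 2 among 8 is thus close to that background, and the values below describe single genes. The median log2 fold change of the 8 was 0.08, against -0.000809 over all tested genes.

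The 3 metallothionein genes lie side by side on the plus strand of chromosome 8 within 27719 bases (mm9; gene models of GENCODE vM1 on NCBIM37, the assembly of mm9). Mt3 runs from 96676507 to 96678048, Mt2 from 96696518 to 96697467 and Mt1 from 96702989 to 96704225. Their coding sequences are shown with each in-frame cysteine codon in capitals, because these cysteines hold the metal and because the pattern shows how alike the 3 messages are.
Mt1: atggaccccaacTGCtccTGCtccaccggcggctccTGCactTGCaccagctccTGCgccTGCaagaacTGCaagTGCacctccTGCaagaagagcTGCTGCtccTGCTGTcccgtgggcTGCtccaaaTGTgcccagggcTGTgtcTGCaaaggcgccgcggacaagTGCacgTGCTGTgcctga
Mt2: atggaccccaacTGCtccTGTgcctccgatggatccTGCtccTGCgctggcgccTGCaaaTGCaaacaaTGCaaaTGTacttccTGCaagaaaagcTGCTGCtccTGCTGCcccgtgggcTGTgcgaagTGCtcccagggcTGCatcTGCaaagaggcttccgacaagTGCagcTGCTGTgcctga
Mt3: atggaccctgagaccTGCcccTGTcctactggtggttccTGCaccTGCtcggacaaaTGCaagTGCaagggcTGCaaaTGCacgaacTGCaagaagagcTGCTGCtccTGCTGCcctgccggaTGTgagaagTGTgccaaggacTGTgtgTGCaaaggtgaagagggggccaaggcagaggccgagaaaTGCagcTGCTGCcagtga
Each coding sequence holds 20 cysteine codons, among 61 codons in Mt1 and Mt2 and 68 in Mt3. Mt1 and Mt2 were identical at 79.6% of aligned bases, Mt1 and Mt3 at 66.2% and Mt2 and Mt3 at 67.6%. The longest stretch shared by a pair of these coding sequences was 27 bases (Mt1 and Mt3), shorter than a read. Every 50-base window within a single exon of the 3 genes had an exact match at only 1 position of the genome. Windows across exon junctions and matches with mismatches were not tested.

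Mt1 and Mt2 are classical targets of MTF-1, so the RefSeq promoter windows of the 3 genes (GRCm38.p6, from 250 bases before to 50 after the annotated start, plus strand) were searched for the core of the metal response element, spelled TGCGCNC or TGCACNC, on both strands. The windows are shown with matches in capitals, to set the gene that rose beside its neighbors.
Mt1, chr8:94178839-94179138: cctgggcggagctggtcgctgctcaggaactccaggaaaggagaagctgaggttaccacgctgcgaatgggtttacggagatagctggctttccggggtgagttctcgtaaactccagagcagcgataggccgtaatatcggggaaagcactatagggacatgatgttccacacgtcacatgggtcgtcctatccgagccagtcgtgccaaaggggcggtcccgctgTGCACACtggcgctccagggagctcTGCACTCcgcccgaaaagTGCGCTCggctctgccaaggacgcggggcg
Mt2, chr8:94172368-94172667: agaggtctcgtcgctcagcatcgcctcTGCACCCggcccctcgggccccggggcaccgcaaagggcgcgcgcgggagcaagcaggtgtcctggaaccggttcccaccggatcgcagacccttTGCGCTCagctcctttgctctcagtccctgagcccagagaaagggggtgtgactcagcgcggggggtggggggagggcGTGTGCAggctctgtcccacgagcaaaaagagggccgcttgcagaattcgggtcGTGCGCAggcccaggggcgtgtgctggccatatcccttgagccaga
Mt3, chr8:94152357-94152656: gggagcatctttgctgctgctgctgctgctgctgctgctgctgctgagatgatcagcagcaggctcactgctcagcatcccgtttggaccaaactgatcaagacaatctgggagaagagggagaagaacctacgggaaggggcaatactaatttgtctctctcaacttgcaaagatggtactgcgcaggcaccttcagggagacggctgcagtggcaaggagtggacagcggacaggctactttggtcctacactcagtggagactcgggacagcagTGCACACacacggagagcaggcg
The core occurred 3 times in the Mt1 window, 4 times in the Mt2 window and 1 time in the Mt3 window. Of 32851 RefSeq promoter windows of this length, 25.7% held at least 1 match, 1.97% at least 3 and 0.517% at least 4. The annotated starts lie upstream of the letters TATAAA, which begin at bases 122, 136 and 107 of the Mt1, Mt2 and Mt3 transcripts. The stretch from the start to these letters held 4, 4 and 3 matches, and those in its first 50 bases are also in the windows shown. The Slc30a1 window held 2 matches, the first of 2 Slc30a3 windows held 1, and the Mtf1 window and both Slc39a10 windows held 0. Slc39a14 had no entry in the table. The antioxidant response element core TGACNNNGC, found in 12.4% of windows, occurred 1 time each in the Mt2 and Slc30a1 windows and overlapped no metal response element core. The STAT half-site pair TTCNNNGAA, found in 8.3% of windows, occurred 1 time, in the first Slc39a10 window. The E-box CACGTG, found in 7.15% of windows, occurred in no window of these genes. Binding at these motifs was not tested.

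Mt1 gave 9818 and 7504 reads in the control libraries and 16713 and 14692 reads in the knockouts. In CPM, the read count scaled to the reads assigned to genes in a library and to its TMM factor, Mt1 was at 293 and 229.6 in the control libraries and at 476 and 521 in the knockouts. Both knockouts were above both controls, with a gap between the groups wider than the spread within either. Mt1 rose by 0.93 ± 0.13 (log2 fold change ± SE, 95% interval 0.62 to 1.24, adjusted p = 0.00502). The call held with any 1 of the 4 libraries left out, with log2 fold changes from 0.76 to 1.13 and adjusted p up to 0.0244.

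Mt2, which encodes the closest relative of the Mt1 protein, was at 208 and 175.0 CPM in the control libraries and at 242 and 365 CPM in the knockouts. Both knockouts lay above both controls, but the knockouts differed from each other by more than the groups did at their nearest, and the second knockout was highest. The log2 fold change of Mt2 was 0.66 ± 0.20 (95% interval 0.18 to 1.14) and did not pass (adjusted p = 0.0617). It passed without the first knockout library (0.93, adjusted p = 0.000303) and was 0.35 without the second (adjusted p = 0.0933), so its size rests on which knockout library is kept. DESeq2 called it (adjusted p = 0.00146), and so did edgeR without robust estimation (adjusted p = 0.0492).

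Mt3, the brain form, was at 293 and 243.6 CPM in the control libraries and at 210.2 and 208 CPM in the knockouts. Both knockouts were below both controls and nearly equal to each other, while the controls differed more. The log2 fold change of Mt3 was -0.36 ± 0.11 (95% interval -0.62 to -0.10) and did not pass (adjusted p = 0.0595). DESeq2 called it (adjusted p = 0.0284). Without a library it ranged from -0.49 to -0.21 and did not pass. Mt4, the keratinocyte form, gave 1 read in the first control, 1 in the first knockout and 0 in the other libraries, and was not tested.

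**Figure D1:**
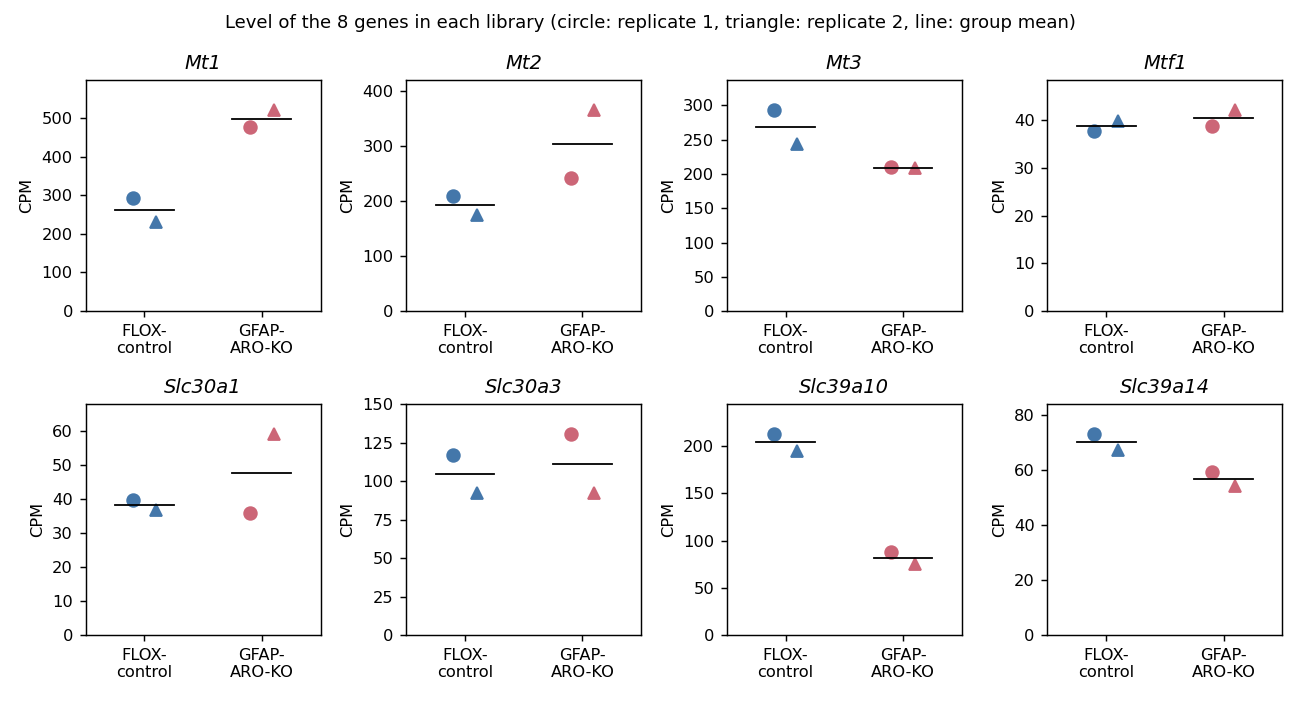
Level of each of the 8 genes in CPM (vertical axes, from 0) in 2 FLOX-control and 2 GFAP-ARO-KO libraries; points are libraries and lines are group means. Mt1 stood at 476 and 521 CPM in the knockouts, above both controls, and Slc39a10 at 88.5 and 75.35 CPM, below both controls.

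The make-up of the metallothionein reads differed between the groups. Mt3 made up 36.9% and 37.6% of the reads of the 3 genes in the control libraries and 22.7% and 19.0% in the knockouts. The exact (Clopper-Pearson) 95% intervals of these shares ran from 36.3% to 37.5% and from 36.9% to 38.2% in the controls, and from 22.2% to 23.1% and from 18.6% to 19.5% in the knockouts. They cover counting error only, since reads without molecular identifiers are not independent molecules. The share was 37.2 ± 0.472% in the control libraries and 20.8 ± 2.57% in the knockouts (SD, n = 2 each), a difference of -16.4 percentage points. The exact two-sided permutation test gave p = 0.333, the smallest that 2 against 2 allow. The share does not depend on how libraries are scaled against each other.

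Mt1 took 36.9% and 35.4% of these reads in the control libraries and 51.3% and 47.6% in the knockouts, again without overlap. The shares of a library add up to the whole, so those of Mt1 and Mt3 are not separate results. Mt2 took 26.2% and 27% in the control libraries and 26.0% and 33.4% in the knockouts, so that its share overlapped between the groups (exact permutation p = 1). Mt1 and Mt3 stood at a ratio near equality in the controls, with 1.00 and 0.943 Mt1 reads per Mt3 read, and at 2.26 and 2.50 in the knockouts. The 3 genes together amounted to 795 and 648 CPM in the control libraries and to 928 and 1094 CPM in the knockouts.

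**Figure D2:**
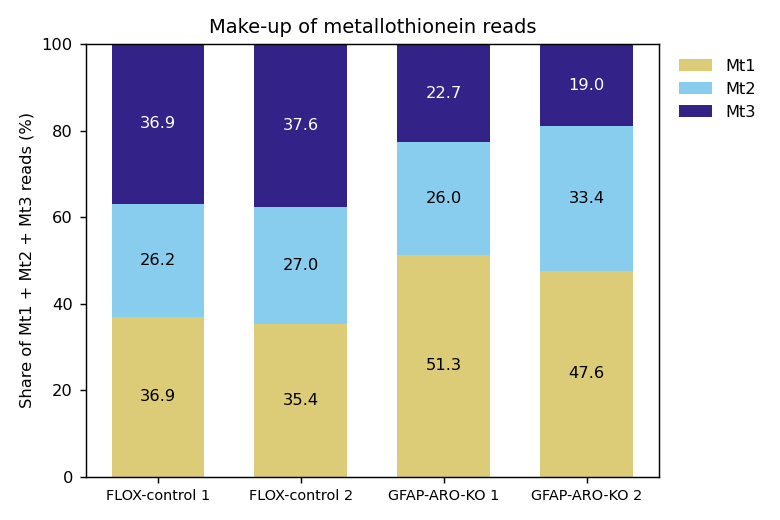
Share of Mt1, Mt2 and Mt3 (stacked bars, percent) in the summed reads of the 3 genes in each library. The Mt3 share was 36.9% and 37.6% in the control libraries and 22.7% and 19.0% in the knockouts, while the Mt1 share was larger in both knockouts.

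Per length, as CPM divided by the kilobases of annotated exon (RPKM), the order of the metallothioneins differed between the groups. The annotated exons of Mt1 span 753 bases, against 540 in its transcript Mt1-201. For Mt2 and Mt3 both lengths are equal (556 and 538 bases). The shorter length would raise the RPKM of Mt1, so its rank and overlaps below hold for the longer length only. In the controls Mt3 was at 499 ± 65.5 RPKM, Mt1 at 347 ± 59.8 RPKM and Mt2 at 345 ± 42.2 RPKM (SD, n = 2 each), with Mt1 and Mt2 overlapping. In the knockouts Mt1 was at 662 ± 42.2 RPKM, Mt2 at 546 ± 157 RPKM and Mt3 at 389 ± 2.66 RPKM, with Mt1 and Mt2 overlapping again. The other 5 genes were far less abundant per length. In the controls Slc30a3 followed at 50.1 ± 8.47 RPKM, Slc39a10 at 34.2 ± 2.07 RPKM, Slc30a1 at 7.32 ± 0.394 RPKM, Slc39a14 at 6.64 ± 0.374 RPKM and Mtf1 at 4.67 ± 0.192 RPKM. Slc30a1 and Slc39a14 were close to each other. In the knockouts Slc30a3 was at 53.4 ± 12.9 RPKM, Slc39a10 at 13.8 ± 1.56 RPKM, Slc30a1 at 9.08 ± 3.11 RPKM, Slc39a14 at 5.37 ± 0.337 RPKM and Mtf1 at 4.89 ± 0.280 RPKM.

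Mtf1 (chromosome 4, 124479348 to 124527044, plus strand, mm9), which encodes the zinc sensor itself, was at 37.7 and 39.9 CPM in the control libraries and at 38.9 and 42.2 CPM in the knockouts. The groups overlapped. Its log2 fold change was 0.06 ± 0.11 (95% interval -0.20 to 0.32, adjusted p = 0.718), an interval that leaves room for a small change in either direction. Of its exons 316 bases overlap 1110065P20Rik on the opposite strand. No source used here gives the strand setting, so the pair could share reads.

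Slc30a1 (chromosome 1, 193730646 to 193737126, plus strand, mm9) encodes ZnT1, the zinc exporter of the plasma membrane. It was at 39.85 and 36.9 CPM in the control libraries and at 36.1 and 59.15 CPM in the knockouts. The first knockout was below both controls and the second above both, so the groups overlapped. The log2 fold change was 0.31 ± 0.22 (95% interval -0.23 to 0.84, adjusted p = 0.366). It was 0.62 without the first knockout library (adjusted p = 0.00209) and -0.08 without the second (adjusted p = 0.694), so 1 library decides its direction. The gene overlaps 1700034H15Rik on the opposite strand over 468 exon bases.

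Slc30a3 (chromosome 5, 31388479 to 31395988, minus strand, mm9), the vesicular zinc transporter of zinc-releasing neurons, was at 117 and 92.2 CPM in the control libraries and at 131 and 92.6 CPM in the knockouts. The first library of each group was the higher one, and the groups overlapped. The log2 fold change was 0.09 ± 0.19 (95% interval -0.36 to 0.54, adjusted p = 0.756). Its sign turned when FLOX-control 2 (-0.07) or GFAP-ARO-KO 1 (-0.18) was left out, and it did not pass with any library left out.

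Slc39a10 (chromosome 1, 46864389 to 46910891, minus strand, mm9) encodes ZIP10, a zinc importer of the plasma membrane. It gave 7110 and 6373 reads in the control libraries and 3107 and 2125 reads in the knockouts. In CPM it was at 212 and 195.0 in the control libraries and at 88.5 and 75.35 in the knockouts. Each knockout was under the level of either control by more than the spread within a group. Slc39a10 fell by 1.31 ± 0.11 (log2 scale, 95% interval of the log2 fold change -1.58 to -1.05, adjusted p = 0.00122), the 58th smallest p of all tested genes. With each library left out in turn the log2 fold change stayed between -1.43 and -1.19 and passed each time. Of the 50-base windows in its exons, 87.8% had an exact match at only 1 position of the genome, and reads from the rest can align at several places. No exon of another annotated gene overlaps it.

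Slc39a14 (chromosome 14, 70703274 to 70751232, minus strand, mm9) encodes ZIP14, an importer of zinc, iron and manganese that is known to be induced by IL-6. It was at 72.9 and 67.3 CPM in the control libraries and at 59.2 and 54.2 CPM in the knockouts. Both knockouts were below both controls. The log2 fold change was -0.30 ± 0.11 (95% interval -0.55 to -0.06) and did not pass (adjusted p = 0.0802), but passed without the first knockout library (-0.37, adjusted p = 0.0303).

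**Figure D3:**
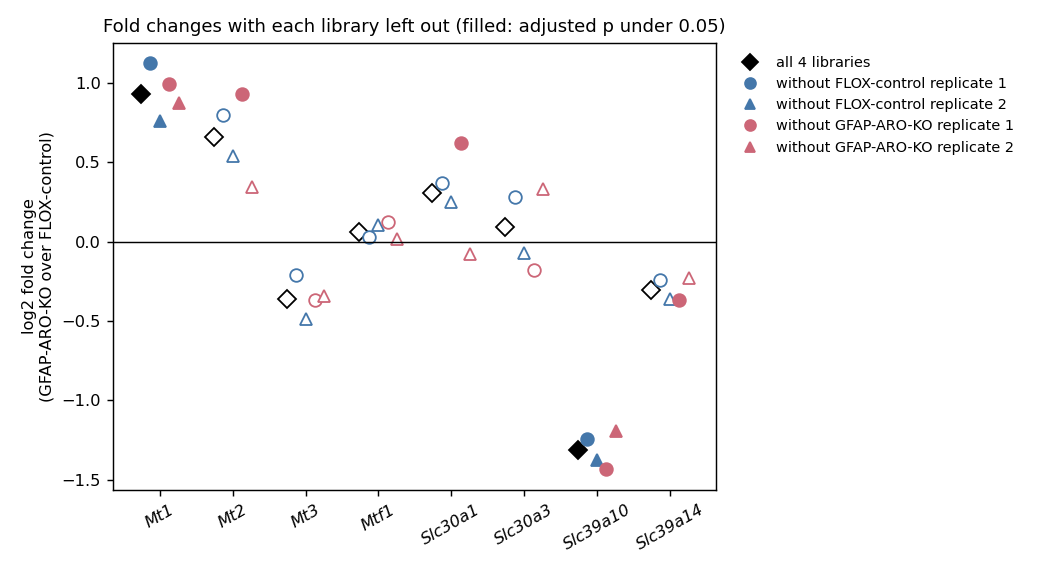
Log2 fold change of GFAP-ARO-KO over FLOX-control (vertical axis) of the 8 genes with all libraries and with each library left out in turn; filled symbols passed at an adjusted p under 0.05. Mt1 (0.76 to 1.13) and Slc39a10 (-1.43 to -1.19) passed in every fit, while Slc30a1 went from 0.62 to -0.08 with the choice of knockout library.

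Counted over the 8 genes, both knockouts were above both controls for 2 (Mt1 and Mt2) and below for 3 (Mt3, Slc39a10 and Slc39a14), and 3 overlapped. Over all tested genes both knockouts were above both controls for 32% and below for 32.8%. The patterns across the 4 libraries also differed within the set. On log2 CPM centered per gene, the pair with the smallest Euclidean distance was Mt3 and Slc39a14 (0.144), followed by Mt2 and Slc30a1 (0.391), both highest in the second knockout. Mt1 and Mt2 were at a distance of 0.453, and the most distant pair was Mt1 and Slc39a10 (2.28). These distances rest on 4 libraries and describe these libraries only.

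The zinc exporter family went both ways. Of 10 SLC30 genes, Slc30a1 and Slc30a3 among them, 9 were tested. Of these 2 rose, 1 fell and 6 did not pass, against 9.39% rising and 11% falling over all tested genes. The median log2 fold change was 0.09 among the exporters. Without either control fewer exporters rose, and without the first knockout library more did, as over all tested genes. Slc30a4, which encodes ZnT4, a transporter of endosomal vesicles, was at 66.9 and 59.2 CPM in the control libraries and at 84.9 and 102 CPM in the knockouts and rose by 0.57 ± 0.13 (adjusted p = 0.0206). Leaving out FLOX-control 1 or FLOX-control 2 ended that call (adjusted p = 0.0599 and 0.144). Slc30a10, whose product exports manganese, was at 10.4 and 12.9 CPM in the control libraries and at 18.9 and 24.5 CPM in the knockouts. It rose by 0.89 ± 0.18 (adjusted p = 0.0165), and leaving out FLOX-control 1 ended the call (adjusted p = 0.109). In both genes the knockouts lay above the controls, with the second knockout highest.

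Slc30a2, which encodes the vesicular transporter ZnT2, was near the limit of detection, with 23 and 11 reads in the control libraries and 2 and 3 in the knockouts. After scaling by the reads assigned to genes and TMM factors, the knockout level was 0.154 times that of the controls (95% interval from counting error alone, 0.0469 to 0.395). It fell by edgeR (log2 fold change -2.64 ± 0.73, adjusted p = 0.0396), did not pass with any library left out (adjusted p from 0.0786 to 0.265), and had no adjusted p in DESeq2, which leaves out genes of low count. Slc30a9, among the most abundant of the family by CPM, was at 203 and 194 CPM in the control libraries and at 181 and 190.1 CPM in the knockouts (log2 fold change -0.10 ± 0.09, adjusted p = 0.476). Slc30a5, Slc30a6 and Slc30a7, transporters of the secretory pathway, had log2 fold changes of 0.02, -0.14 and 0.10 and did not pass. Slc30a8, the transporter of insulin granules, gave 1 read in a control and 2 in a knockout and was not tested.

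Among the importers Slc39a10 stood alone in passing. Of 14 SLC39 genes 13 were tested, of which 1 fell, 0 rose and 12 did not pass by edgeR, with a median log2 fold change of -0.22. At an unadjusted p under 0.05, 5 were lower and 0 higher, against 2897 lower and 2576 higher of 15011 tested genes. Both limma-voom and DESeq2 called 1 importer lower and 0 higher. Without the first knockout library 2 fell, Slc39a14 being the other. In 9 of the 13 both knockouts were below both controls and in 0 both were above, against 32.8% and 32% of all tested genes. Slc39a6, whose product ZIP6 can pair with ZIP10, was at 91.9 and 88.05 CPM in the control libraries and at 93.7 and 90.3 CPM in the knockouts (log2 fold change 0.03 ± 0.09, adjusted p = 0.836). The log2 ratio of Slc39a10 to Slc39a6 was 1.209 and 1.147 in the control libraries and -0.08 and -0.26 in the knockouts (exact permutation p = 0.333, the smallest possible).

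The other importers that did not pass spanned a range of log2 fold changes from -0.93 for Slc39a4 to 0.13 for Slc39a12. Slc39a12, which encodes ZIP12, an importer found in brain, was at 39.8 and 44.5 CPM in the control libraries and at 42.7 and 49.9 CPM in the knockouts, with overlap. Slc39a1, an importer of the plasma membrane, was at 34.1 and 34.6 CPM in the control libraries and at 27.2 and 26.8 CPM in the knockouts (log2 fold change -0.35 ± 0.11, adjusted p = 0.0647). For Slc39a7, which releases zinc from the endoplasmic reticulum, the log2 difference was -0.06 ± 0.09 (adjusted p = 0.679).

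**Figure D4:**
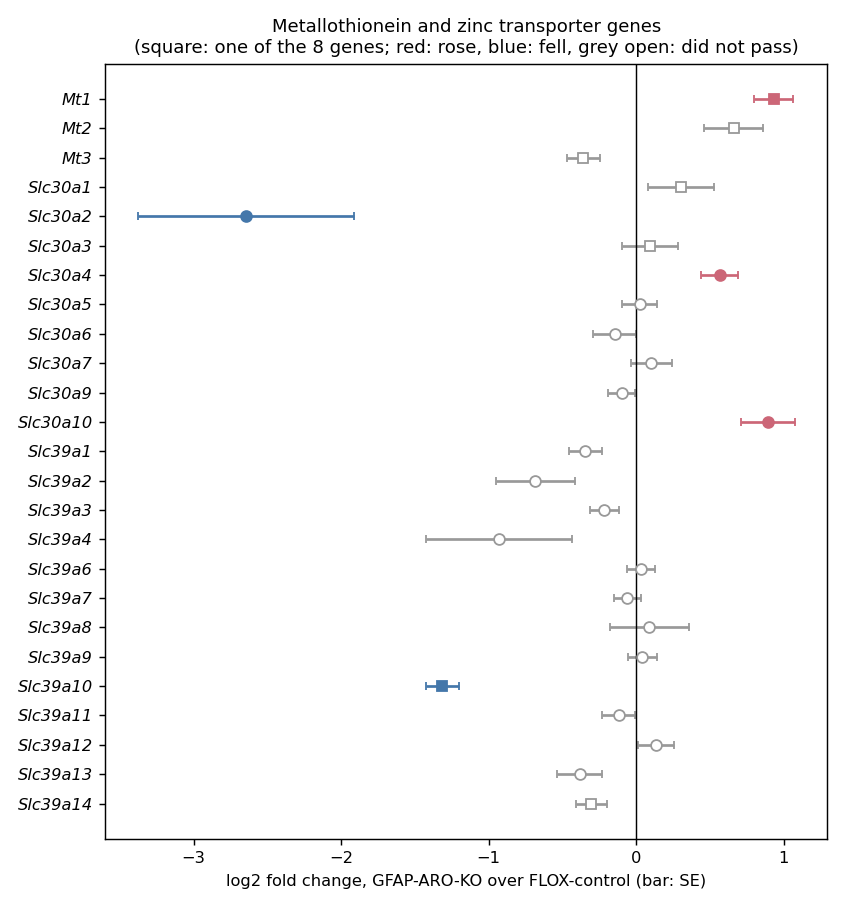
Log2 fold change of GFAP-ARO-KO over FLOX-control with its SE (horizontal axis) for the 25 tested metallothionein, SLC30 and SLC39 genes; squares mark genes of the set of 8 (Mtf1 is not shown), filled symbols passed. Mt1, Slc30a4 and Slc30a10 rose, and Slc30a2 and Slc39a10 fell.

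**Figure D5:**
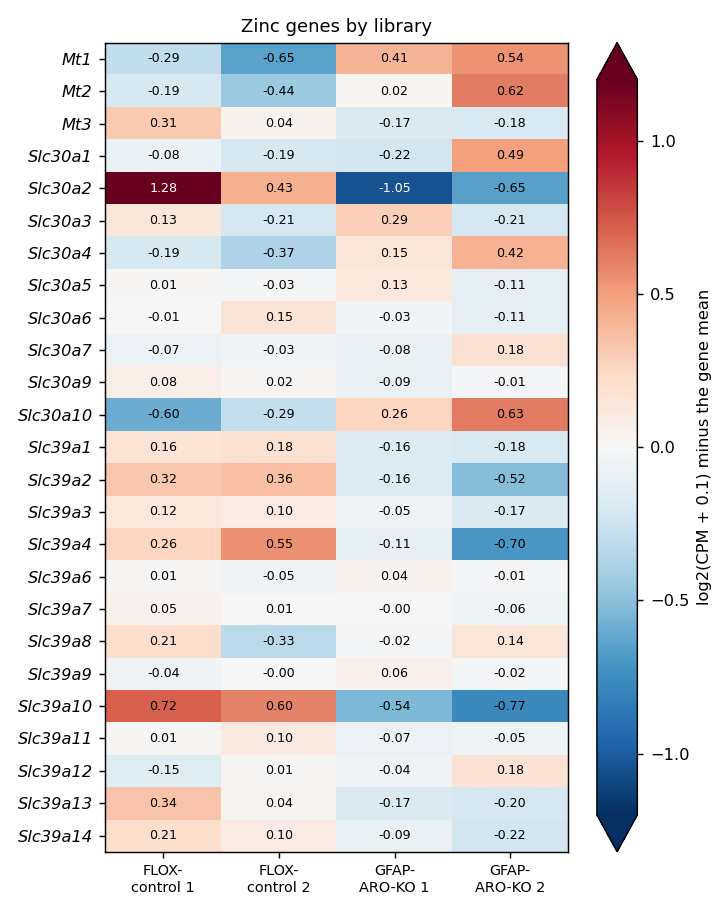
Level of the same genes in each library as log2(CPM + 0.1) minus the mean of the gene over the 4 libraries (colors and printed values; the color scale is capped). Slc39a10 was positive in both controls and negative in both knockouts, and Slc30a1, Mt2, Slc30a4 and Slc30a10 were highest in the second knockout.

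Over all genes, the count called depended on the libraries: 3061 with all 4, 901 when FLOX-control 1 was left out, 814 for FLOX-control 2, 4820 for GFAP-ARO-KO 1 and 2763 for GFAP-ARO-KO 2. Libraries held 27930696 to 34878375 reads assigned to genes, and replicates differed by more than counting noise (chi-square per degree of freedom 13.8 between the controls and 26.0 between the knockouts). The targeted gene Cyp19a1 gave 3 and 2 reads in the control libraries and 1 and 9 in the knockouts, too few to check the labels. Excitatory neuron markers of hippocampus were abundant in every library (summed level of 6 markers 9710 to 11030 CPM). All 9 meningeal fibroblast markers were highest in the second knockout, where they summed to 453 CPM against 129 in the first and 113 and 157 in the controls, and none was at 0 in any library. By edgeR 1 of the 9 passed as higher, beside 9.39% of all tested genes. More passed without GFAP-ARO-KO 1 and fewer without either control, as over all genes. With 1 library left out, the log2 fold change of Igf2 ranged from -0.17 to 2.84 and that of Col3a1 from -0.19 to 1.77. That of Islr ranged from 0.69 to 1.14. Of all 15011 tested genes 4673 were highest in the second knockout, the most of any library. Of the 8 genes, Mt1, Mt2, Mtf1 and Slc30a1 were also highest in that library, as were Slc30a4 and Slc30a10, and the part of meningeal tissue in their values was not tested. Mt1 was 0.88 (adjusted p = 0.011) and Slc39a10 -1.19 (adjusted p = 0.000699) on the log2 scale without it.

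Markers of further cell types differed as well, beside 9.39% of all tested genes rising and 11% falling. Of 10 astrocyte markers 1 rose, 3 fell and 6 did not pass, with a summed level of 6129 and 6468 CPM in the control libraries and 5170 and 5477 CPM in the knockouts. All 8 microglia markers fell, from 442 and 491 CPM to 222.5 and 232.0 CPM in sum. Of 8 endothelial markers 3 rose and 1 fell (293 and 282 CPM against 356 and 402.5 CPM in sum), and of 5 tested choroid plexus markers 2 rose (42.2 and 41.15 CPM against 53.4 and 69.4 CPM over the list), with 0 rising without either control library. With all libraries, 1 choroid plexus marker rose by DESeq2, without a filter on low counts and with replicates blocked by number, and 1 fell in the blocked fit. Of 6 dentate granule neuron markers, of the cells whose mossy fibers hold vesicular zinc, 4 rose (291 and 266 CPM against 364 and 388 CPM in sum), and 2 without the second control. Without GFAP-ARO-KO 1 more endothelial and astrocyte markers rose, as over all genes. Without GFAP-ARO-KO 2 more endothelial markers fell, while fewer fell over all genes. None of these markers was at 0 in a library, and their part in the values of the 8 genes was not tested. In RNA of whole tissue, fewer cells of a type and less RNA per cell cannot be told apart.

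Genes of other metals and of pathways known to act on metallothionein genes were read from lists. Over all 15011 tested genes 9.39% rose and 11% fell by edgeR. At an unadjusted p under 0.05, 2576 were higher and 2897 lower. Of 11 copper-handling genes 0 rose and 1 fell by edgeR (0 higher and 3 lower at an unadjusted p under 0.05, and 0 rising and 1 falling by limma-voom and by DESeq2). The one that fell was Cox17, the copper chaperone of mitochondria (log2 fold change -0.46 ± 0.11, adjusted p = 0.0289), and the call was lost without either control library (adjusted p = 0.150 and 0.202). When GFAP-ARO-KO 1 was left out, a copper-handling gene rose, and more genes rose over all tested genes too. For Sod1, the copper and zinc superoxide dismutase, the log2 difference was -0.02 ± 0.10 (adjusted p = 0.916), and for Commd1, which acts in copper export, it was -0.34 ± 0.14 (adjusted p = 0.121). Of 14 tested iron-handling genes 2 rose and 2 fell. Trf, which encodes transferrin, was at 306 and 357 CPM in the control libraries and at 119 and 139 CPM in the knockouts and fell by 1.36 ± 0.12 (adjusted p = 0.00133). Slc25a28, a mitochondrial iron importer, rose by 0.88 ± 0.11 (adjusted p = 0.00377). For Fth1, the ferritin heavy chain, the log2 difference was -0.02 ± 0.09 (adjusted p = 0.877). Without either control fewer iron-handling genes rose and fell, and without the first knockout library more rose, as over all genes. With 1 library left out, the log2 fold change ranged from -1.46 to -1.24 for Trf and from 0.83 to 0.93 for Slc25a28.

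Of 12 glucocorticoid-induced genes, a class to which Mt1 and Mt2 belong, 7 rose and 0 fell by edgeR, with a median log2 fold change of 0.62. At an unadjusted p under 0.05, 8 were higher and 0 lower, against 2576 higher and 2897 lower of 15011 tested genes. Both limma-voom and DESeq2, run on the same libraries, called 7 higher and 0 lower. The lists were chosen with earlier results of these data known, so these counts are not an independent test. Plin4, a lipid droplet protein gene, rose by 1.41 ± 0.12 (adjusted p = 0.00115). Fkbp5, whose product binds the glucocorticoid receptor complex, rose by 0.93 ± 0.09 (adjusted p = 0.00178). Klf9, a transcription factor gene, rose by 0.52 ± 0.11 (adjusted p = 0.021), a call lost when either control was left out (adjusted p = 0.0547 and 0.151). The count of rises was 4 without the second control and 4 without the second knockout library. The 11 IL-6 and STAT3-induced genes had a median log2 fold change of -0.60. By edgeR there were 5 falls and 1 rise among them, and the other 5 were not called. Slc39a14 belongs to this class, and Mt1 and Mt2 also respond to cytokines. Timp1, a metalloproteinase inhibitor gene, fell by 5.26 ± 0.24 (adjusted p = 0.000243). The STAT3 feedback gene Socs3 fell by 3.35 ± 0.22 (adjusted p = 0.000569). For Serpina3n, a marker of reactive astrocytes, the log2 difference was -0.30 ± 0.16 (adjusted p = 0.22). The count of falls was 3 without the first control, and the rise was lost when either control was left out or replicates were blocked by number. Of 9 NRF2-induced genes, 1 rose (Gclc, for glutathione synthesis, by 0.48 ± 0.10, adjusted p = 0.0183) and 1 fell (Hmox1, heme oxygenase, by 0.61 ± 0.14, adjusted p = 0.0248), and neither passed without either control library. Without the first knockout library more of the 9 rose and fell, as over all genes. Without the second more of the 9 fell, while fewer fell over all genes. With all libraries, 2 of the 9 rose with legacy estimation and with replicates blocked by number. For Srxn1, sulfiredoxin, the log2 difference was -0.12 ± 0.26 (adjusted p = 0.778). The part of these pathways in the values of Mt1, Mt2 and Slc39a14 was not tested.

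For each of the 8 genes, the 3 tested genes with the nearest pattern over the 4 libraries were listed. Mt1 was nearest to Sesn1 (distance 0.0611), Vrk1 and Edn1. Sesn1 encodes the stress protein sestrin 1 and was at 58.5 and 47.6 CPM in the control libraries and at 100.3 and 109 CPM in the knockouts, the same order of libraries as Mt1. Slc39a10 was nearest to Josd2 (distance 0.0892), S100a10 and Tmem80. S100a10, the partner of annexin A2, was at 46.5 and 44.3 CPM in the control libraries and at 20.5 and 18.1 CPM in the knockouts. Mt2 was nearest to Tnfrsf10b, Bcl2l11 and Lhfp, and Mt3 to Yes1, Slc25a17 and the importer gene Slc39a13. Slc39a13 was at 23.4 and 18.9 CPM in the control libraries and at 16.4 and 16.1 CPM in the knockouts. Slc30a1 was nearest to Tgfbr1, Rsbn1 and Dram2, Slc30a3 to D130017N08Rik, 1810049H13Rik and Ldoc1, Slc39a14 to Pdhb, Creb3l1 and Ncaph2, and Mtf1 to Csnk1a1, Rprd1b and Rab23.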

How the data were processed

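The authors deposited raw read counts per gene symbol, 1 file a library. Per the labels' protocols the libraries were made from total RNA and read as 50 bp single ends. Per the submitters' processing notes, the tools were bcl2fastq, TopHat2 2.0.8b (build mm9) and HTSeq. Runs in duplicate were combined before alignment, per the series' design text. No source used here gives the annotation, the HTSeq version or the strand setting.

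Rows that name no gene (45.2% to 47.3% of entries, 35.7% to 37.4% for reads aligned at several places) stayed out of library sizes and tests. The tally of reads aligned at several places shows that they were not counted, so repeated stretches lose reads. Genes were kept by filterByExpr (minimum count 10, minimum total 15) and tested with edgeR 4.0.16 in R 4.3.3 (TMM, glmQLFit with robust estimation and legacy=FALSE, glmQLFTest, Benjamini-Hochberg adjustment). Standard errors are the log2 fold change over the root of F. CPM used TMM factors, RPKM the merged exon length. Pattern distances used log2(CPM + 0.1). Libraries were grouped by title. The steps were tested on simulated counts.

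The 8 genes and the lists were chosen with earlier results of these data known. Named genes were the 8, the called genes of the zinc families or else the most abundant one, the 2 smallest p and the most abundant of each other list, and the 3 nearest patterns. Cell type markers are given as sums. Further family members, Slc30a9 among them, were named after their values were seen. With all libraries, 9.39% of all tested genes rose and 11% fell. Of 6 oligodendrocyte markers 3 fell, and fewer did without either control library, as over all genes. Of 6 hippocampal field markers 1 rose and 1 fell (0 falling without FLOX-control 2). Of 6 excitatory neuron markers 2 fell (0 without FLOX-control 1 and 1 without FLOX-control 2). As alternatives, scaling was by RLE or upper quartiles, the filter was dropped or set at 1 CPM, estimation was legacy or non-robust, limma-voom (limma 3.58.1) or DESeq2 1.42.0 replaced edgeR, replicates were blocked by number, and libraries were left out in turn.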

Additional observations from a re-analysis of the deposited data

How the results depend on the processing

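Mt1 rose and Slc39a10 fell under every alternative run. Among the alternatives that keep all libraries, 69 of 72 values of the 8 genes kept their direction and side of the threshold. The others were Mt2 with robust=FALSE (0.66) and DESeq2 (0.67) and Mt3 with DESeq2 (-0.35), which then passed, so that 2 of the 8 genes rose with robust=FALSE and with DESeq2 and 2 fell with DESeq2. The cause was not tested. The 1 fall among zinc exporters (Slc30a2) became 0 with the stricter filter, which removes it, and 0 with DESeq2, which gave it no adjusted p.

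With 1 library left out, the lone library of a group is assumed to vary like the others. Rises over all genes then numbered 296 to 2387 and falls 518 to 2433. Rises among the 8 genes numbered 1 to 3 and falls 1 to 2. Rises among exporters numbered 0 to 3 and falls 0, and among importers 0 rose and 1 to 2 fell. The log2 fold changes ranged from 0.35 to 0.93 for Mt2, from -0.49 to -0.21 for Mt3, from -0.077 to 0.62 for Slc30a1 and from -0.37 to -0.23 for Slc39a14. The difference in Mt3 share ranged from -18.2 to -14.6 percentage points, and was -17.4 per kilobase of merged exon.

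The replicate numbers were checked for pairing: the difference of the controls and that of the knockouts correlated at r = -0.00758 over 15011 genes. No pairing by number showed over all genes, but a batch that acts on few genes would not show in this value. With the replicate block 1449 genes rose and 1744 fell, and 1 of the 8 rose and 1 fell (Mt1 0.94, Slc39a10 -1.32). Among the lists, the block moved counts of the choroid plexus, IL-6 and STAT3-induced and NRF2-induced genes by over 1.5 times. Depth limits Slc30a2, Slc30a8 and Mt4, where 3 reads correspond to 0.0855 to 0.106 CPM.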
